A study of Homo sapiens with 12 samples.

Results

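The 10 genes described here, which dampen or read out signalling through the kinase ERK, were followed across all libraries: the MAP kinase phosphatases DUSP1, DUSP4, DUSP5 and DUSP6, the Sprouty genes SPRY2 and SPRY4, the Spred genes SPRED1 and SPRED2, and the transcription factor genes ETV4 and ETV5. They were taken by symbol from a table of 24641 genes, where each of the 10 has 1 row. The cells were MDA-MB-231, an established human breast cancer line. The study asked what RIPOR3 does for tumour growth and spread, and its title links RIPOR3 mRNA to hypoxia. Each of the 4 groups had 3 libraries: shControl (genotype labelled WT) and shRIPOR3 (labelled RIPOR3 knockdown), each in normoxia and in hypoxia. Hypoxia was 1% O2 for 24 hours, and the labels do not state the oxygen level of normoxia. All cells carried a hairpin and grew at 5% CO2 in medium with 10% serum. The labels name a single knockdown line, and they do not say whether replicates were separate cultures, so p-values measure the spread between these libraries only, which may be technical.

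ERK is the last kinase of the RAS, RAF and MEK cascade that growth factor receptors switch on. Active ERK raises the transcription of its own brakes. Dual-specificity phosphatases remove the activating phosphates from MAP kinases: DUSP6 acts on ERK in the cytoplasm, DUSP5 acts on ERK in the nucleus, and the nuclear enzymes DUSP1 and DUSP4 can also act on the stress kinases JNK and p38. Sprouty proteins act higher up, between receptors, RAS and RAF, and Spred proteins bring the RAS inhibitor neurofibromin to the membrane. ETV4 and ETV5 are ETS transcription factors of the PEA3 family whose mRNA is commonly read as ERK output. Only mRNA was measured, and no value here gives the phosphorylation of ERK.

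Library totals were 14750734 to 30032858 counts in normoxia and 31781324 to 52526813 in hypoxia, so depth moved with the oxygen level. RIPOR3 itself was scarce, with 3 to 7 counts a library in normoxia shControl, 0 to 1 in normoxia shRIPOR3, 18 to 33 in hypoxia shControl and 3 to 11 in hypoxia shRIPOR3. NDRG1, a common marker of hypoxia, stood at 167 CPM in normoxia shControl and 1971 CPM in hypoxia shControl, and at 71.6 and 483 CPM in shRIPOR3 (CPM with TMM scaling, here and below). The 4 markers of the mesenchymal-like line (VIM, CD44, AXL, ZEB1) summed to between 1413 and 1963 CPM in every library. Of 5 markers listed as low or absent in the line, ESR1 and PGR stayed under 1 CPM and CDH1 under 2 CPM. GATA3 was at 1.28 to 1.78 CPM in normoxia and 2.44 to 3.09 CPM in hypoxia, and ERBB2 was present at 30.3 to 44.3 CPM. Of other cell types, 2 of 3 blood markers were in the table and summed to at most 0.982 CPM. The 3 fibroblast markers summed to 3.05 to 3.99 CPM in normoxia shControl, 1.59 to 2.48 in normoxia shRIPOR3, 6.90 to 7.28 in hypoxia shControl and 3.18 to 3.55 in hypoxia shRIPOR3, with DCN at 0 in normoxia shRIPOR3 and in hypoxia shControl. The 3 endothelial markers summed to 7.15 to 8.33, 2.24 to 3.01, 12.8 to 13.6 and 3.18 to 4.37 CPM in the same order, with VWF at most 0.271. Both sums moved with the groups, and their part in the results was not tested.

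The stretches of 250 bases before the RefSeq start are shown for DUSP1, DUSP6 and SPRY2 as examples. Other genes of the 10 also responded to the hairpin differently in normoxia and in hypoxia. Such windows from RefSeq (GRCh38.p14) were used for 6 of the 10 genes, DUSP1, DUSP6, SPRY2, SPRY4, SPRED1 and SPRED2. Entries for DUSP4, DUSP5, ETV4 and ETV5 were not used here. Capitals mark exact matches on either strand to the ETS core CGGAA, the hypoxia-inducible factor core ACGTG, the cyclic AMP response half-site TGACG and the AP-1 site TGACTCA.
DUSP1, chr5:172771196-172771445, minus strand: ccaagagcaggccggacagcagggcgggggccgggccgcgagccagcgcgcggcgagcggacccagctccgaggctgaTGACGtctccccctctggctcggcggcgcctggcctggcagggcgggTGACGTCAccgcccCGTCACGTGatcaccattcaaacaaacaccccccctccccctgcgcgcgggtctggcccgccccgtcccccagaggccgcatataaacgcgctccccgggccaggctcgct
DUSP6, chr12:89352502-89352751, minus strand: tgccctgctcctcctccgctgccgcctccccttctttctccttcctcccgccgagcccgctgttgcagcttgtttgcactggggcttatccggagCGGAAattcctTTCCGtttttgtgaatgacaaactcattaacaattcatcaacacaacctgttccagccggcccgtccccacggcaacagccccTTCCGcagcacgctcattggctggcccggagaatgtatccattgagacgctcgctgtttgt
SPRY2, chr13:80341127-80341376, minus strand: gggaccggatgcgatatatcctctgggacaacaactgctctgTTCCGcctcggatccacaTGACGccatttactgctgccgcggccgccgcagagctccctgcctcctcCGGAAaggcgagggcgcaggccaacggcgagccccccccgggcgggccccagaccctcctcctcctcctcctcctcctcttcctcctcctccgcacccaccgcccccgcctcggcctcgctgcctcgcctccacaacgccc
The DUSP1 window held 4 matches to the half-site TGACG, a pair of which form one palindrome, and 2 overlapping matches to ACGTG in a second palindrome, one end of which overlaps a further half-site. The DUSP6 window held 3 ETS cores and none of the other motifs. This SPRY2 window, the farthest upstream of 3, held 2 ETS cores and 1 half-site while the other SPRY2 windows held no match. Its start was not matched to a GENCODE transcript start. The SPRY2 window that was matched to such a start, chr13:80339660-80339909, held none of the motifs. The windows not shown held few matches: none for SPRED1, none in either SPRED2 window, and 1 half-site for SPRY4. Among all 34788 RefSeq windows of that length, 30.3% held CGGAA, 18.5% ACGTG, 21.2% TGACG and 4.21% TGACTCA. The matches describe these letters only, and binding was not measured.

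Hypoxia raised 9 of the 10 genes in shControl cells and lowered ETV4, and the same 9 rose in shRIPOR3 cells, where ETV4 did not pass the test. Across the 15648 genes tested, 64.8% were called in shControl and 55.6% in shRIPOR3: 32.4% were called higher and 32.4% lower by hypoxia in shControl, and 25.2% higher and 30.4% lower in shRIPOR3 (edgeR quasi-likelihood test, adjusted p under 0.05). The median log2 fold change of the 10 genes was 0.76 in shControl and 0.41 in shRIPOR3, beside 0.016 and -0.013 over all genes tested. Genes with a mean between 27.4 and 219 CPM, the range of these 10, had medians of -0.12 and -0.094. Hypoxia and normoxia libraries lay apart without overlap for all 10 genes in shControl and for 9 in shRIPOR3. Over all genes 34.1% lay wholly higher and 33.1% wholly lower in shControl, and 28.5% and 32.6% in shRIPOR3. Scaling to library totals in place of TMM factors raised the median of all genes by 0.11 in shControl and 0.12 in shRIPOR3, and put 61.6% of the called genes above 0 in place of 50.0% in shControl and 63.4% in place of 45.3% in shRIPOR3. The 9 genes that rose also rose on that scale, where the SPRY2 value in shRIPOR3 was 0.36 in place of 0.24 and the ETV4 value in shControl -0.19 in place of -0.30. In bulk RNA a change in every cell and a change in the share of responding cells cannot be told apart, and the same holds for fewer cells against less RNA per cell.

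**Figure D1:**
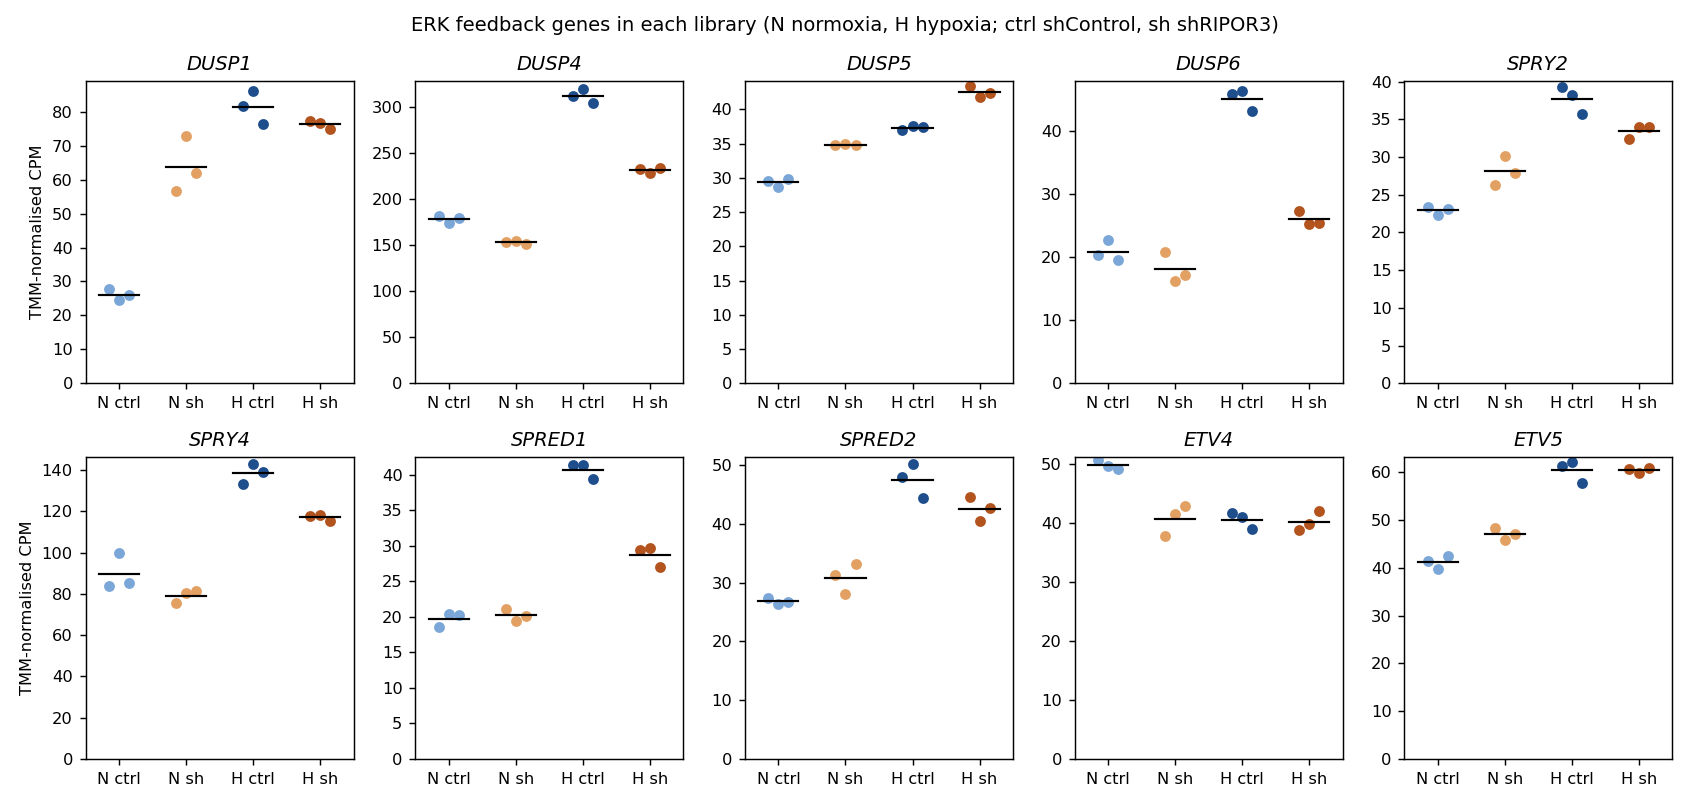
TMM-normalised CPM (vertical axes, each starting at 0) of the 10 genes in each library, with points for libraries and a bar for the mean of the 3 libraries of a group (N normoxia, H hypoxia, ctrl shControl, sh shRIPOR3). DUSP1 is low only in normoxia shControl, and ETV4 is highest there. DUSP4, DUSP6, SPRY2, SPRY4 and SPRED1 stand highest in hypoxia shControl, without overlap with another group.

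The RIPOR3 hairpin split the genes in normoxia and lowered most of them in hypoxia. In normoxia 5 of the 10 were higher with shRIPOR3 (DUSP1, DUSP5, SPRY2, SPRED2, ETV5), 4 were lower (DUSP4, DUSP6, SPRY4, ETV4) and SPRED1 did not pass the test; over all genes 45.7% were called, 25.1% higher and 20.6% lower. In hypoxia 6 were lower (DUSP4, DUSP6, SPRY2, SPRY4, SPRED1, SPRED2), DUSP5 was higher, and DUSP1, ETV4 and ETV5 did not pass; over all genes 61.9% were called, 30.7% higher and 31.2% lower. The median of the 10 was 0.11 in normoxia and -0.17 in hypoxia, beside 0.033 and -0.0029 over all genes. DUSP4, DUSP6 and SPRY4 were lower with the hairpin at both oxygen levels, DUSP5 was higher at both, and SPRY2 and SPRED2 were higher in normoxia and lower in hypoxia. Groups did not overlap for 8 of the 10 in normoxia, where 28.2% of all genes lay wholly higher and 23.6% wholly lower, and for 6 in hypoxia, where the shares were 32.6% and 33.4%. The normoxia count of lower genes was 2 in place of 4 without replicate 2 of normoxia shControl, as DUSP6 and SPRY4 then missed the threshold.

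The fitted rise in hypoxia was smaller with shRIPOR3 for all 9 genes that rose in both lines. For 7 of these the difference passed the threshold. The interaction term, which subtracts the hypoxia effect in shControl from that in shRIPOR3, was below 0 past the threshold for DUSP1, DUSP4, DUSP6, SPRY2, SPRED1, SPRED2 and ETV5, and above 0 for ETV4, which lost its fall. Over all genes 23.2% were called in this term, 12.3% lower and 10.9% higher; of those called 47.0% lay above 0, against 57.5% in DESeq2. For DUSP5 the term was -0.053 (95% interval -0.17 to 0.069, adjusted p = 0.575) and for SPRY4 -0.073 (-0.22 to 0.071, adjusted p = 0.501). The median of the 10 was -0.28, beside -0.020 over all genes. Among genes with a mean between 27.4 and 219 CPM, 17.8% were called lower and 20.7% higher in the interaction, with a median of 0.015. The comparisons share control libraries, so the hypoxia and hairpin effects of a gene are not independent of each other.

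**Figure D2:**
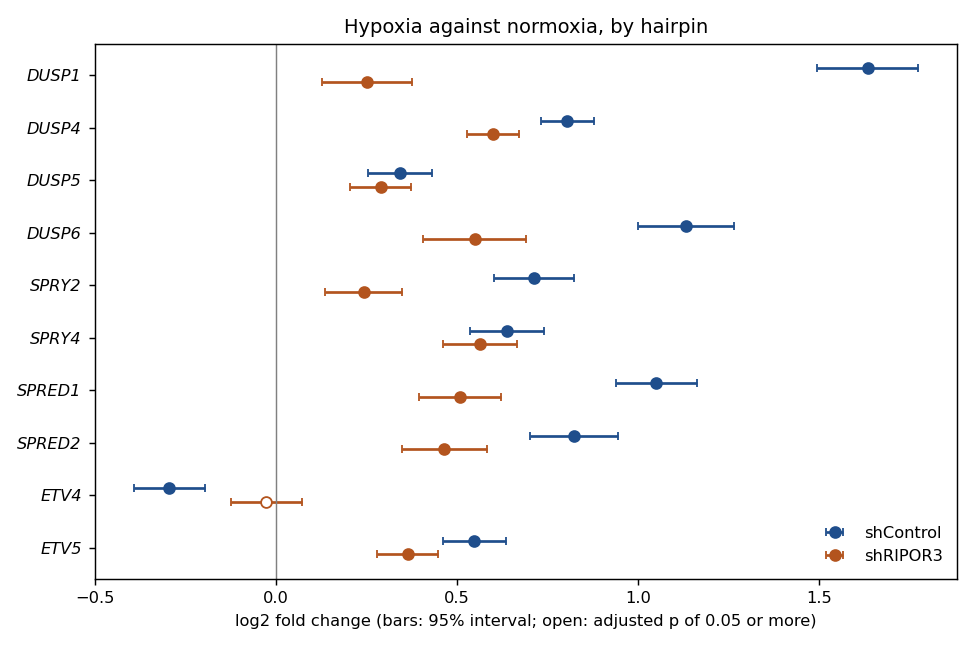
Log2 fold change of hypoxia against normoxia (horizontal axis) for each gene in shControl (blue) and shRIPOR3 (brown), with 95% intervals and open points where the adjusted p was 0.05 or more. The DUSP1 point moves from 1.63 in shControl to 0.25 in shRIPOR3, while the DUSP5 and SPRY4 pairs lie close together.

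DUSP1, an immediate-early phosphatase that many stresses induce, was low in 1 group only. The normoxia shControl libraries held 27.8, 24.4 and 25.9 CPM. The normoxia shRIPOR3 libraries held 56.7, 72.9 and 61.9 CPM, the hypoxia shControl libraries 81.8, 86.0 and 76.5 CPM, and the hypoxia shRIPOR3 libraries 77.4, 76.8 and 74.9 CPM. Every normoxia shControl library lay below every library of the other groups, and the 2 hypoxia groups overlapped. Hypoxia raised DUSP1 3.10-fold in shControl (log2 1.63 ± 0.068, ± SE here and below, adjusted p = 4.6e-16) and 1.19-fold in shRIPOR3 (0.25 ± 0.060, adjusted p = 0.000943). The hairpin raised it 2.44-fold in normoxia (1.29 ± 0.071, adjusted p = 4.28e-13), and in hypoxia the difference was -0.094 (95% interval -0.21 to 0.022, adjusted p = 0.152). Its interaction of -1.38 ± 0.091 (adjusted p = 1.42e-10) was the largest of the 10 and ranked 196 by size among all genes tested. The normoxia shRIPOR3 group was uneven for DUSP1 (63.9 ± 8.24 CPM, mean ± SD, n = 3).

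DUSP4, which encodes a nuclear phosphatase, was the most abundant of the 10 per library in CPM and was lowered by the hairpin at both oxygen levels. Normoxia shControl libraries held 181, 174 and 180 CPM and normoxia shRIPOR3 libraries 153, 154 and 152 CPM. Hypoxia shControl libraries held 312, 320 and 304 CPM and hypoxia shRIPOR3 libraries 233, 229 and 233 CPM. No group overlapped another. Hypoxia raised DUSP4 1.75-fold in shControl (0.80 ± 0.035) and 1.51-fold in shRIPOR3 (0.60 ± 0.035), and the hairpin lowered it in normoxia (-0.22 ± 0.036) and in hypoxia (-0.43 ± 0.034). The interaction was -0.21 ± 0.049 (adjusted p = 0.00367).

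DUSP5, the nuclear ERK phosphatase, was higher in hypoxia with both hairpins and higher with shRIPOR3 at both oxygen levels. Its libraries held 29.6, 28.7 and 29.8 CPM in normoxia shControl, 34.8, 34.9 and 34.7 CPM in normoxia shRIPOR3, 36.9, 37.6 and 37.4 CPM in hypoxia shControl, and 43.4, 41.8 and 42.4 CPM in hypoxia shRIPOR3. The 4 groups did not overlap and hypoxia shRIPOR3 was the highest, a place that no other gene of the 10 had without overlap. Hypoxia raised it by 0.34 ± 0.043 in shControl and 0.29 ± 0.041 in shRIPOR3 (log2), and the hairpin by 0.24 ± 0.045 in normoxia and 0.19 ± 0.038 in hypoxia, all past the threshold.

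DUSP6, the cytoplasmic ERK phosphatase, had the largest fall of the 10 with the hairpin in hypoxia. Normoxia libraries held 20.3, 22.7 and 19.5 CPM in shControl and 20.7, 16.2 and 17.1 CPM in shRIPOR3, which overlap. Hypoxia shControl libraries held 45.8, 46.4 and 43.1 CPM and hypoxia shRIPOR3 libraries 27.2, 25.2 and 25.4 CPM, which do not. Hypoxia raised DUSP6 2.19-fold in shControl (1.13 ± 0.064) and 1.46-fold in shRIPOR3 (0.55 ± 0.068), with an interaction of -0.58 ± 0.095 (adjusted p = 8.48e-05). In hypoxia the hairpin lowered it to 0.576 of the shControl level (-0.80 ± 0.056, adjusted p = 1.27e-11). In normoxia the value was -0.21 ± 0.077 (adjusted p = 0.0269), a call that was lost without replicate 2 of normoxia shControl (adjusted p = 0.103), without replicate 2 (0.155) or 3 (0.12) of normoxia shRIPOR3, and with libraries thinned to the smallest total (0.136). The antisense gene AC024909.2, not analysed here, shares 1875 exon bases with DUSP6 on chromosome 12. The libraries were stranded but no strand setting of the counting was stated, so the DUSP6 counts may or may not include its reads.

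SPRY2 and SPRY4 encode Sprouty proteins, and they differed in what the hairpin did in normoxia. SPRY2 libraries held 23.4, 22.3 and 23.1 CPM in normoxia shControl and 26.4, 30.2 and 27.9 CPM in normoxia shRIPOR3, then 39.2, 38.2 and 35.7 CPM in hypoxia shControl and 32.4, 33.9 and 34.0 CPM in hypoxia shRIPOR3. The hairpin libraries lay above the control libraries in normoxia and below them in hypoxia, with no overlap in either. SPRY2 rose 1.64-fold in hypoxia in shControl (0.71 ± 0.053) and 1.18-fold in shRIPOR3 (0.24 ± 0.052), the hairpin effect was 0.30 ± 0.058 in normoxia and -0.18 ± 0.046 in hypoxia, and the interaction was -0.47 ± 0.075 (adjusted p = 6.18e-05).

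SPRY4 libraries held 83.9, 99.7 and 85.4 CPM in normoxia shControl and 75.4, 80.5 and 81.2 CPM in normoxia shRIPOR3. In hypoxia they held 133, 143 and 139 CPM in shControl and 118, 118 and 115 CPM in shRIPOR3. Hypoxia libraries lay above normoxia libraries in both lines, and hairpin libraries below control libraries at both oxygen levels. Hypoxia raised SPRY4 by 0.64 ± 0.049 in shControl and 0.56 ± 0.049 in shRIPOR3, and the hairpin effect was -0.17 ± 0.052 in normoxia (adjusted p = 0.0106) and -0.24 ± 0.046 in hypoxia (adjusted p = 7.99e-05). The normoxia call was lost without replicate 2 of normoxia shControl, the library at 99.7 CPM (-0.095, adjusted p = 0.091), and without replicate 1 of normoxia shRIPOR3 (-0.14, adjusted p = 0.0509).

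SPRED1 and SPRED2, which encode the Spred inhibitors, both rose in hypoxia by less with shRIPOR3. SPRED1 libraries held 18.5, 20.3 and 20.3 CPM in normoxia shControl and 21.1, 19.5 and 20.2 CPM in normoxia shRIPOR3, against 41.4, 41.4 and 39.4 CPM in hypoxia shControl and 29.4, 29.7 and 27.0 CPM in hypoxia shRIPOR3. The normoxia groups overlapped and the hypoxia groups lay apart. SPRED1 rose 2.07-fold in shControl (1.05 ± 0.054) and 1.42-fold in shRIPOR3 (0.51 ± 0.055), the interaction was -0.54 ± 0.078 (adjusted p = 2.01e-05), and the hairpin difference was -0.51 ± 0.047 in hypoxia and 0.035 in normoxia (95% interval -0.095 to 0.16, adjusted p = 0.68).

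SPRED2 libraries held 27.4, 26.4 and 26.7 CPM in normoxia shControl, 31.4, 28.0 and 33.1 CPM in normoxia shRIPOR3, 48.1, 50.2 and 44.4 CPM in hypoxia shControl and 44.6, 40.5 and 42.7 CPM in hypoxia shRIPOR3. The hypoxia groups overlapped between hairpins, and the normoxia groups did not. Hypoxia raised SPRED2 by 0.82 ± 0.059 in shControl and 0.46 ± 0.057 in shRIPOR3, with an interaction of -0.36 ± 0.083 (adjusted p = 0.0026). The hairpin effects were small, 0.20 ± 0.065 in normoxia (adjusted p = 0.0125) and -0.16 ± 0.051 in hypoxia (adjusted p = 0.0108). The first was lost without replicate 3 of normoxia shRIPOR3 (adjusted p = 0.139), and the second without replicate 2 of hypoxia shControl (0.104) or of hypoxia shRIPOR3 (0.0666) and in DESeq2 (0.0565).

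**Figure D3:**
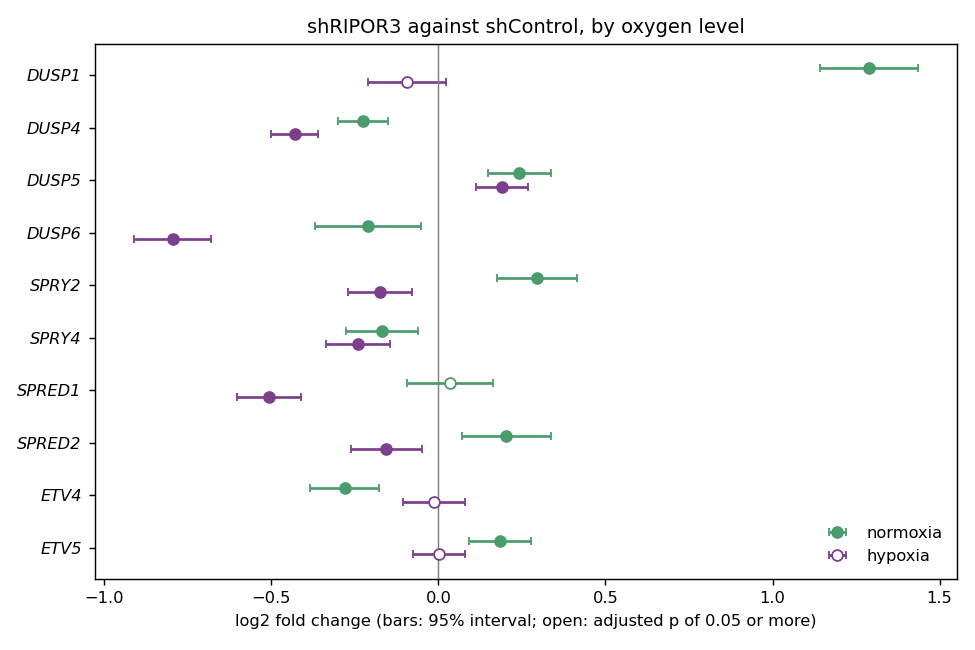
Log2 fold change of shRIPOR3 against shControl (horizontal axis) for each gene in normoxia (green) and hypoxia (purple), with 95% intervals and open points where the adjusted p was 0.05 or more. DUSP1 stands apart at 1.29 in normoxia and DUSP6 at -0.80 in hypoxia, and SPRY2 and SPRED2 lie on opposite sides of 0 at the 2 oxygen levels.

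ETV4 and ETV5, the PEA3-family transcription factor genes, moved in opposite directions under hypoxia in shControl. ETV4 libraries held 50.6, 49.7 and 49.1 CPM in normoxia shControl, and every other library lay lower, with 37.9, 41.5 and 42.9 CPM in normoxia shRIPOR3, 41.7, 41.0 and 39.0 CPM in hypoxia shControl and 38.9, 39.8 and 42.0 CPM in hypoxia shRIPOR3. The last 3 groups overlapped. ETV4 fell in hypoxia in shControl (-0.30 ± 0.047, adjusted p = 7.11e-06) and with the hairpin in normoxia (-0.28 ± 0.050, adjusted p = 6.13e-05). The hypoxia value in shRIPOR3 was -0.027 (95% interval -0.13 to 0.072, adjusted p = 0.657), the hairpin value in hypoxia was -0.012 (-0.10 to 0.081, adjusted p = 0.833), and the interaction was 0.27 ± 0.067 (adjusted p = 0.00498). ETV4 shares 68 exon bases with DHX8 on the other strand, a gene with 1935 to 7441 counts a library.

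ETV5 libraries held 41.4, 39.8 and 42.5 CPM in normoxia shControl, 48.4, 45.9 and 47.0 CPM in normoxia shRIPOR3, 61.3, 62.1 and 57.8 CPM in hypoxia shControl and 60.7, 59.9 and 60.8 CPM in hypoxia shRIPOR3. The hypoxia groups overlapped, and both lay above the normoxia groups. ETV5 rose by 0.55 ± 0.042 in shControl and 0.36 ± 0.041 in shRIPOR3, and with the hairpin by 0.19 ± 0.045 in normoxia, while the hairpin value in hypoxia was 0.0020 (95% interval -0.076 to 0.080, adjusted p = 0.969). The interaction of -0.18 ± 0.059 (adjusted p = 0.0261) missed the threshold in 10 of 21 alternatives, with adjusted p up to 0.154 without replicate 2 of hypoxia shControl, and also without replicate 1 of hypoxia shControl (0.0572), replicate 1 (0.0606) or 2 (0.0595) of normoxia shControl and replicate 1 (0.0654) or 3 (0.0609) of normoxia shRIPOR3. ETV5 shares 164 exon bases with DGKG, a neighbour on the same strand with 167 to 534 counts a library.

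Levels were compared between genes per kilobase of merged GENCODE exons. In normoxia shControl DUSP4 was highest at 24.6 ± 0.501 CPM per kb (mean ± SD, n = 3), followed by ETV4 (13.8 ± 0.205), SPRY4 (13.7 ± 1.33) and DUSP1 (12.9 ± 0.852), whose neighbouring ranges overlapped. DUSP5 (11.2), SPRY2 (7.55), ETV5 (7.10), SPRED2 (5.20), DUSP6 (4.49) and SPRED1 (2.39 CPM per kb) followed with ranges that did not overlap from one to the next. DUSP1 took the first place in both shRIPOR3 groups, at 31.6 ± 4.08 CPM per kb in normoxia and 37.8 ± 0.655 in hypoxia, above DUSP4 at 21.1 ± 0.173 and 31.9 ± 0.328 without overlap. Per kilobase of the longest transcript DUSP4 led in hypoxia shRIPOR3 instead, at 41.8 against 37.8 for DUSP1, while DUSP1 kept the first place in normoxia shRIPOR3 (31.6 against 27.6). In hypoxia shControl DUSP4 (43.0 ± 1.09) and DUSP1 (40.4 ± 2.35) overlapped, as did ETV5 (10.4), DUSP6 (9.74) and SPRED2 (9.23) in turn. SPRED1 was lowest in every group, reaching 4.93 CPM per kb in hypoxia shControl. The order depends on the length used: with the longest transcript in place of merged exons, 24 of the 40 places (10 genes in 4 groups) stayed the same.

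**Figure D4:**
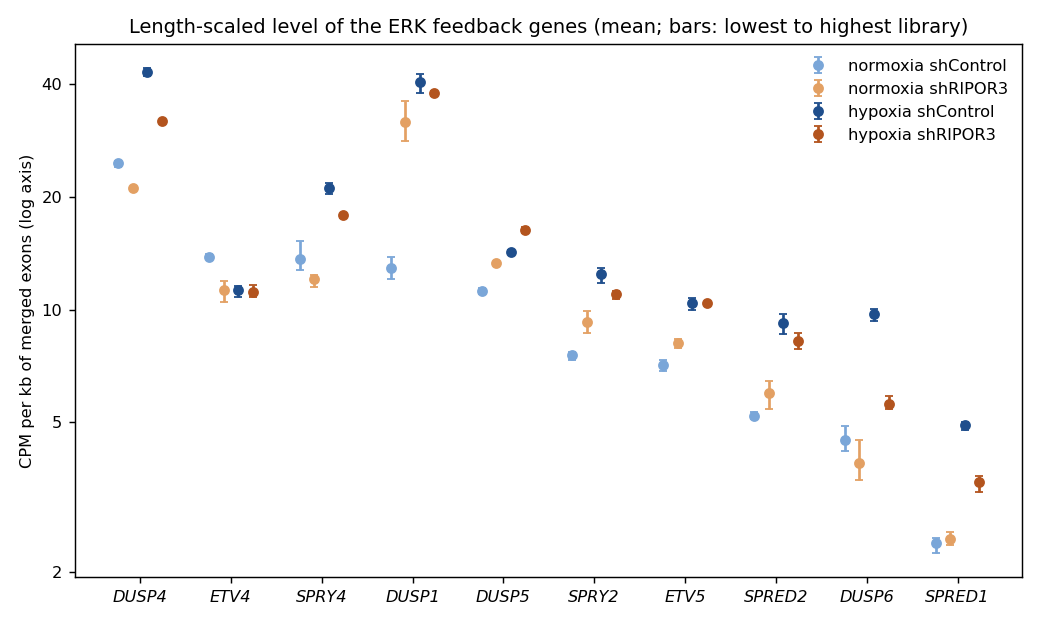
CPM per kb of merged exons (log axis) of the 10 genes in the 4 groups, with points for means and bars from the lowest to the highest of 3 libraries. DUSP1 lies at 12.9 CPM per kb in normoxia shControl and at 31.6 to 40.4 in the other groups, and SPRED1 is lowest throughout.

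On GRCh38 (GENCODE 29) DUSP1 lies on chromosome 5 from 172768090 to 172771195, DUSP4 on chromosome 8 from 29333064 to 29350668, DUSP6 on chromosome 12 from 89347232 to 89353271, SPRY2 on chromosome 13 from 80335976 to 80340951, SPRY4 on chromosome 5 from 142310427 to 142326455 and SPRED2 on chromosome 2 from 65310851 to 65432637. ETV4 lies on chromosome 17 from 43527844 to 43579620 and ETV5 on chromosome 3 from 186046308 to 186110318, and these 8 are on the minus strand. DUSP5 on chromosome 10 from 110497838 to 110511544 and SPRED1 on chromosome 15 from 38252326 to 38357249 are on the plus strand. Within SPRY4 the antisense gene SPRY4-AS1, which shares no exon base with it, had 55 to 176 counts a library.

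Other genes of the pathway were counted by list, and the shares over all genes to read these counts against are 32.4% higher and 32.4% lower for hypoxia in shControl, 25.2% and 30.4% in shRIPOR3, 25.1% and 20.6% for the hairpin in normoxia, and 30.7% and 31.2% in hypoxia. Of 9 other inhibitors (SPRY1, SPRY3, SPRED3, IL17RD, ERRFI1, CBL, NF1, RASA1, RASA2) 8 rose and none fell under hypoxia in shControl (median log2 0.78), and 5 rose and 1 fell in shRIPOR3 (median 0.43). With the hairpin 1 rose and 5 fell in normoxia (median -0.33), and none rose and 6 fell in hypoxia (median -0.46). ERRFI1, which encodes an inhibitor of EGFR, rose by 1.73 ± 0.037 in hypoxia in shControl and by 0.86 ± 0.038 in shRIPOR3, and was lower with the hairpin in normoxia (-0.81 ± 0.039) and in hypoxia (-1.69 ± 0.036); its interaction was -0.88 ± 0.052 (adjusted p = 3.4e-11). CBL, a ubiquitin ligase for receptors, rose by 0.87 ± 0.058 and 0.63 ± 0.061 in hypoxia, while SPRED3 was lower with the hairpin in normoxia (-0.96 ± 0.10) and SPRY1 in hypoxia (-0.86 ± 0.064).

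Of 6 other MAP kinase phosphatases listed, 5 were in the table and were tested, and DUSP2 was not analysed here. In hypoxia 2 of the 5 rose and none fell in shControl, and 2 rose and 1 fell in shRIPOR3, with DUSP7, another cytoplasmic ERK phosphatase, up by 0.49 ± 0.086 and 0.79 ± 0.075 and DUSP10 by 0.31 ± 0.074 and 0.24 ± 0.070, the last 0.36 with library totals. DUSP7 was also higher with the hairpin, by 0.41 ± 0.094 in normoxia and 0.71 ± 0.067 in hypoxia, opposite to DUSP6. In hypoxia the hairpin raised 1 and lowered 2 of the 5, DUSP9 among the lower (-1.53 ± 0.38), and in normoxia it raised 1 and lowered none. DUSP9 was scarce, with 38 counts over the hypoxia shControl libraries and 17 over the hypoxia shRIPOR3 libraries (means of 0.34 and 0.11 CPM).

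Genes that ERK is known to induce outside the feedback loop showed no single direction. Of 17 such genes hypoxia raised 9 and lowered 4 in shControl (median 0.15) and raised 8 and lowered 4 in shRIPOR3 (median 0.13). The hairpin raised 7 and lowered 7 in normoxia (median 0.041) and raised 6 and lowered 7 in hypoxia (median 0.0012). FOSL1, an AP-1 subunit, fell in hypoxia in shControl (-0.57 ± 0.041), HMGA2, a chromatin protein, rose in hypoxia in shRIPOR3 (0.44 ± 0.048), and HBEGF, a ligand of EGFR, was lower with the hairpin in normoxia (-0.60 ± 0.041) and hypoxia (-0.72 ± 0.037). The interaction was past the threshold for 5 of the 17, near the share of 23.2% over all genes tested. FOSL1 stood at 0.29 ± 0.057 and FOS, another AP-1 subunit, at -0.93 ± 0.24, a call lost after thinning (adjusted p = 0.124).

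The kinase cascade itself held genes called in both directions in each comparison. Of 19 genes from EGFR to the RSK kinases 7 rose and 8 fell in hypoxia in shControl (median -0.065), 5 rose and 7 fell in shRIPOR3 (-0.016), 1 rose and 7 fell with the hairpin in normoxia (-0.077) and 5 rose and 10 fell with it in hypoxia (-0.13). EGFR, the receptor, rose by 1.57 ± 0.037 in shControl and 1.00 ± 0.037 in shRIPOR3 under hypoxia, and its interaction was -0.58 ± 0.052 (adjusted p = 2.72e-08). MAP2K1, which encodes MEK1, rose by 0.96 ± 0.038 and 0.61 ± 0.038, with an interaction of -0.34 ± 0.054 (adjusted p = 5.39e-05). With the hairpin in hypoxia EGFR was lower (-0.60 ± 0.036), as was the RSK gene RPS6KA2 (-1.10 ± 0.084), and in normoxia the adaptor gene SHC1 (-0.32 ± 0.040) and RPS6KA1 (-0.30 ± 0.050) were lower.

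Of 9 genes of the stress MAP kinases JNK and p38 and of the kinases upstream of them, 1 rose and 4 fell in hypoxia in shControl. In shRIPOR3 2 rose and 5 fell. MAPK13, a p38 kinase, rose by 0.72 ± 0.040 and 0.31 ± 0.038, and MAP2K4, a kinase upstream of JNK, fell by 0.46 ± 0.051 and 0.47 ± 0.051. The hairpin raised 3 and lowered 1 in normoxia and raised 5 and lowered none in hypoxia, with MAPK8, which encodes JNK1, higher by 0.40 ± 0.053 and 0.31 ± 0.047.

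**Figure D5:**
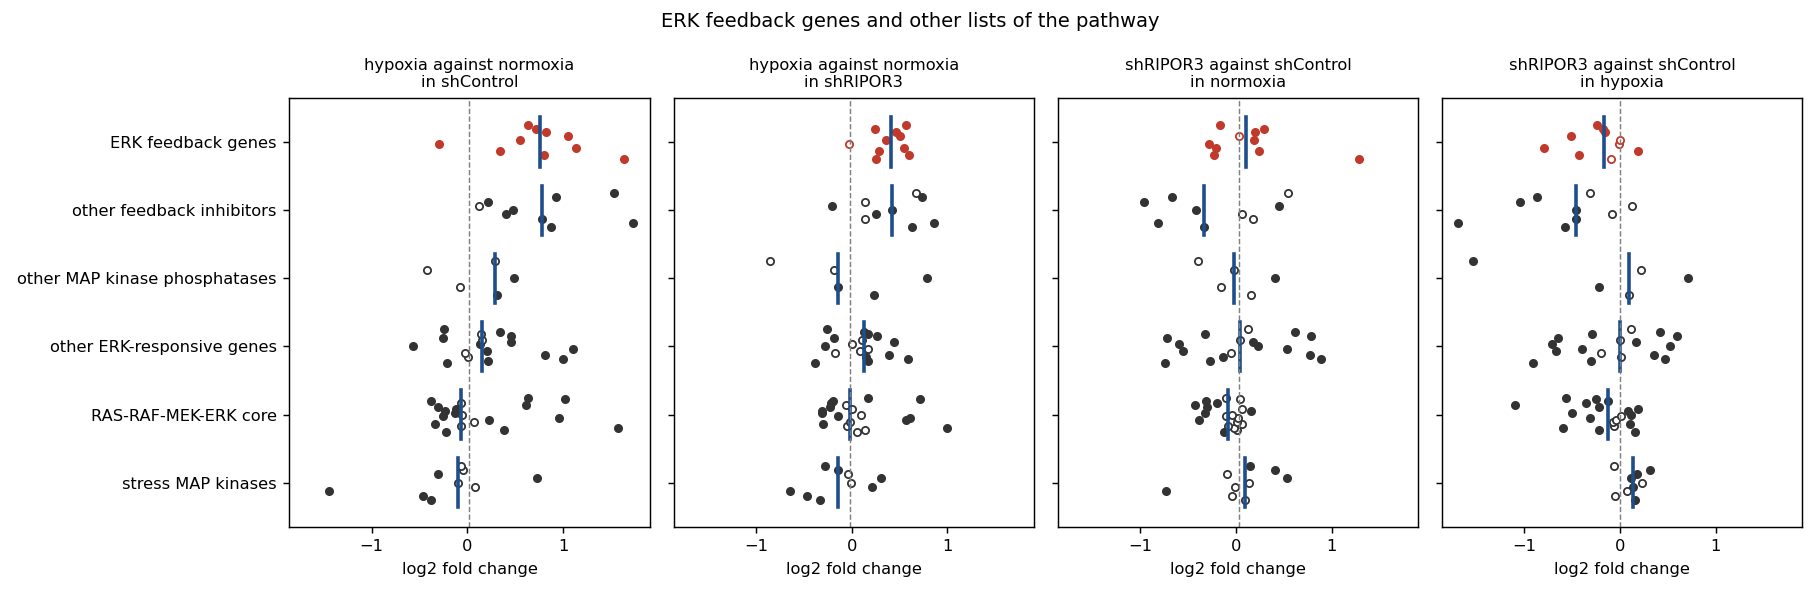
Log2 fold changes (horizontal axes) of the 10 genes (red) and of 5 other lists of the pathway in 4 comparisons, with filled points for adjusted p under 0.05, a blue bar for each list's median and a dashed line for the median of all genes tested. In hypoxia in shControl the medians of the 10 genes and of the other feedback inhibitors are 0.76 and 0.78, and those of the cascade and the stress kinases are -0.065 and -0.094.

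Among the 10, profiles of log2(CPM + 1) over the 12 libraries were closest for SPRED2 and ETV5 (Pearson r = 0.971), DUSP4 and SPRY4 (0.966), and DUSP4 and SPRED1 (0.963), and ETV4 ran against DUSP1 (-0.886). Outside the 10, among 9780 genes with a mean of at least 5 CPM, the nearest to DUSP4 were SLC2A1 and NDRG1 (each r = 0.998), to DUSP6 OSMR and STC1 (0.986), to SPRED1 KLF5 (0.995) and FNBP1 (0.993), to SPRED2 THSD4 (0.992) and ZFAND5 (0.989), and to SPRY4 OGT (0.990) and DCAF16 (0.985). DUSP1 was nearest to SLFN5 (0.992) and AGO1 (0.977), DUSP5 to THBS1 (0.992) and ADO (0.991), SPRY2 to AMIGO2 (0.986) and KIF27 (0.985), and ETV5 to FOXO3 (0.994) and ZNF621 (0.991). Genes above 0.95 numbered 449 for DUSP4, 320 for SPRED1, 310 for ETV5, 251 for SPRED2, 247 for SPRY4 and 233 for DUSP6. There were 171 for DUSP5, 91 for SPRY2 and 25 for DUSP1. ETV4 had no gene above 0.95, and its nearest were LINC01446 (0.940) and PLK1 (0.934). The libraries fall into 4 groups, and hypoxia libraries were also the deeper ones, so these values largely reflect 4 group means and carry no test.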

How the data were processed

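RNA of 12 MDA-MB-231 samples was made into stranded mRNA libraries, per the labels' protocols. The authors deposited a matrix of raw read counts with gene symbols as rows and the 12 libraries as columns. Tools listed in the submitters' processing notes are STAR 2.5.3a, fastp 0.23.4 and featureCounts, and the build is GRCh38. Which annotation and strand setting were used is not given in the sources used here.

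The counts went into edgeR 4.0.16 under R 4.3.3. One model held all 12 libraries with the 4 groups as terms and TMM factors. The filterByExpr function kept 15648 genes, among them all 10 members. Quasi-likelihood F-tests were adjusted over these by the Benjamini-Hochberg method at 0.05, with 95% intervals. Contrasts were hypoxia within each hairpin, hairpin within each oxygen level, and the interaction. The scripts were tested on simulated data. Replicates differed by more than sampling noise (chi-square per degree of freedom 2.49 to 5.62), and their numbers did not pair libraries (correlations of deviations -0.0566 to 0.0597 over 18 pairs). Exon lengths and coordinates came from GENCODE 29, promoters from RefSeq. Beside the 10, up to 2 genes with the smallest p per list and comparison were named, and the 2 nearest profiles of each member; 1 gene of the ERK-responsive list is counted but not reported by name. Members and lists were chosen with earlier results of these data known. Alternatives were DESeq2 1.42.0, other scalings and filters, the replicate number as a block, fits on fewer groups, a stricter threshold of 0.01, thinning, and leaving out each library. Python 3.11.15, pandas 2.3.3 and matplotlib 3.10.9 served for annotation and plots.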

Additional observations from a re-analysis of the deposited data

Results flagged for a closer look

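The effect of hypoxia differed between the hairpins, by the test of the difference itself in edgeR, for 8 of the 10 genes. The difference (shRIPOR3 minus shControl, log2) was -1.38 ± 0.091 for DUSP1 (adjusted p = 1.42e-10), -0.58 ± 0.095 for DUSP6 (8.48e-05), -0.54 ± 0.078 for SPRED1 (2.01e-05), -0.47 ± 0.075 for SPRY2 (6.18e-05), -0.36 ± 0.083 for SPRED2 (0.0026), -0.21 ± 0.049 for DUSP4 (0.00367), -0.18 ± 0.059 for ETV5 (0.0261) and 0.27 ± 0.067 for ETV4 (0.00498). Each group had 3 libraries, and within both hairpins all 3 hypoxia libraries lay above all 3 normoxia libraries for the first 7. For ETV4 they lay below in shControl and overlapped in shRIPOR3. Over all genes 23.2% were called in this term. Among genes with a mean between 27.4 and 219 CPM, 17.8% were called lower and 20.7% higher.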

How the results depend on the processing

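Of the 50 results on single members (10 genes in 5 comparisons), 41 kept their direction and their side of the threshold in every alternative run. The values that lost the threshold belong to DUSP6, SPRY4 and SPRED2 in normoxia, SPRED2 in hypoxia and the ETV5 interaction, and the cause was not tested. With the replicate number as a block no member changed its call, and the hypoxia effect of DUSP1 in shControl was 1.62 and its interaction -1.37. At a threshold of 0.01 the hairpin lowered 2 of the members in normoxia, and leaving out each library in turn gave 2 to 4. With the longest transcript 24 of 40 places in the order of levels stayed. Signs changed only for values that were not called. Hypoxia in shRIPOR3 gave ETV4 0.0020 with upper-quartile scaling, 0.096 with library totals, 0.0065 with only the groups compared, and -0.072 to 0.014 when leaving out a library. The hairpin in hypoxia gave ETV4 0.0078 with DESeq2 size factors and in the DESeq2 test, 0.014 without a filter and -0.044 to 0.016 when leaving out a library. It gave ETV5 -0.010 with the filter of 1 CPM, -0.033 after thinning and -0.018 to 0.032 when leaving out a library. In normoxia the hairpin value of SPRED1 ran from -0.013 to 0.067 over the left-out libraries. Depth differed with oxygen, and thinning to one total changed 1 member call, that of DUSP6 in normoxia.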

Other observations

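The count of DUSP1 over that of DUSP6 within a library does not depend on scaling, and this pair was chosen after the values were seen. The ratio was 1.37, 1.08 and 1.33 in normoxia shControl and 1.79, 1.85 and 1.77 in hypoxia shControl. It was 2.74, 4.49 and 3.61 in normoxia shRIPOR3 and 2.84, 3.05 and 2.94 in hypoxia shRIPOR3. Every shRIPOR3 library lay above every shControl library at the same oxygen level. The ratio is of counts and says nothing of which transcript was more abundant per length.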
